A study of Rattus with 9 samples.

Results

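The collagen genes of the rat bile duct were followed in single cells of sham-operated and liver-transplanted rats. They were chosen by name alone, as every symbol made of Col, a number, the letter a and a number. The rule found 42 of the 23836 gene symbols measured. By the kind of structure the chain builds, 10 members were fibrillar, 9 associated with fibrils, 6 chains of the basement membrane network, 5 chains of beaded filaments, 4 transmembrane, 3 short-chain network, 2 multiplexin, 1 anchoring fibril and 2 other. Col1a2, Col6a3 and Col21a1 were not analysed here. Col23a1 had no unique molecular identifier (UMI) in any kept cell, 22 members had 1000 UMIs or more, and the other 20 members had fewer.

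Collagens are trimers, most of them secreted and some of them transmembrane. Types I, III and V form the fibrils of the duct wall, in which type V limits fibril diameter. Type IV forms the sheet under epithelium and endothelium and around smooth muscle, type VI the beaded filaments between cells and fibrils, and types XV and XVIII lie in basement membrane zones. Fibroblasts of the duct wall and the portal tract are the usual source of fibrillar collagen, and its accumulation narrows ducts in biliary fibrosis.

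The tissue was bile duct of 9 samples sequenced as 20 libraries by 10x Genomics 3′ single-cell RNA-seq. In the sham group each of the 3 samples was a single library. The ctrl group was made of rats with a liver transplant and ischemic injury, and the treat group of such rats whose splenic and gastric-duodenal arteries were also ligated to raise arterial flow to the liver. Each of these arms had 1 sample at each of days 1, 3 and 7 after transplantation, with 3 libraries a sample in ctrl and 3, 2 and 3 in treat. For its rats the study's methods give the Sprague-Dawley strain, both sexes and an age of 6 to 8 weeks, and for its transplant model a warm ischemia of 30 min. These methods do not describe the raised-flow arm, and the labels give neither strain, age nor ischemia time. A duct that was transplanted holds cells of the graft and of the host, which were not told apart.

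The labels do not say whether libraries or samples came from separate rats, so libraries were summed per sample and p-values measure the spread between these samples only. Limits on genes, mitochondrial and hemoglobin UMIs and doublets left 139617 cells, 2286 to 31722 per sample, with 9426965 to 191266739 UMIs per sample. Cells were clustered without the collagen genes and named from markers that contain no collagen. With at least 1 UMI in the class, fibroblast-like cells carried all 14 fibroblast markers, biliary epithelial cell (BEC)-like cells all 12 of theirs, and endothelial cell (EC)-like cells 12 of 13, with Robo4 at 0. Markers of other classes met this limit too, so it is no support for the names. Fibroblast-like cells also held all 12 BEC and all 10 neutrophil markers, and EC-like cells all 14 fibroblast markers. Sham sample 1 stood apart, with 2286 cells and 86 fibroblast-like cells, against 3190 and 5180 in the other shams. No library pair shared more than 52 barcodes, nor more than 1.23% of the barcodes of the smaller library. A level is given as CPM, the UMIs of a gene per 1000000 UMIs of the same sample and cell class. Counts of 3′ ends are not divided by transcript length, so that levels of different genes are not on 1 scale.

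Col1a1 (ENSRNOG00000003897) and Col3a1 (ENSRNOG00000003357), the chains of the main fibrils, were found almost wholly in fibroblast-like cells. These cells held 97.9% of the 2123348 Col1a1 UMIs and 97.2% of the 3529640 Col3a1 UMIs. The mean Col1a1 level over 9 samples was 11714 CPM in fibroblast-like cells, 683 CPM in vascular smooth muscle cell (VSMC)-like cells, 95.6 CPM in EC-like cells and 43.3 CPM in BEC-like cells. In NK&T-like cells, which should not make it, the level was 46.9 CPM, and in neutrophil-like cells 35.0 CPM. The BEC mean therefore lay between the means of NK&T-like and neutrophil-like cells, though the BEC level varied widely between sham samples. Synthesis was not measured in any class. Empty barcodes, which hold only free RNA, gave Col1a1 levels of 247, 4173 and 5341 CPM in the sham samples, 99.6, 1033 and 683 CPM in ctrl at days 1, 3 and 7, and 1561, 692 and 590 CPM in treat. Free RNA was thus richest in Col1a1 where fibroblast-like cells were most frequent.

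Levels were compared between 9 classes. Among these, of the 22 members with 1000 UMIs or more, 11 had their highest mean level in fibroblast-like cells, 5 in VSMC-like, 3 in EC-like, 2 in lymphatic EC-like and 1 in tuft-like cells. In the 8 other named classes, examined later and over the samples with at least 20 of their cells, 5 of the 22 had a higher mean than in any of the 9. Schwann-like cells, 280 in all, held Col18a1 at 581 to 2203 CPM over 6 samples (mean 1297), Col16a1 at a mean of 594, Col5a3 at 405 and Col7a1 at 105 CPM, and mast-like cells held Col11a1 at 59.9 CPM over 3 samples. Col14a1, a fibril-associated chain, had 97.5% of its UMIs in fibroblast-like cells, Col6a2 (ENSRNOG00000001254) of the beaded filaments 94.0%, Col4a5 (ENSRNOG00000018951) 90.5% and Col12a1 87.9%. The main basement membrane chain Col4a1 (ENSRNOG00000016281) was spread wider, with 47.5% of its UMIs in fibroblast-like, 34.2% in EC-like and 14.0% in VSMC-like cells. By level the order turned, and Col4a1 stood at 1528 ± 539 CPM (SD, n = 9) in VSMC-like cells, 1218 ± 484 CPM in EC-like cells and 325 ± 133 CPM in fibroblast-like cells. The first pair of these classes overlapped within their SD. In neutrophil-like cells Col4a1 was at 4.30 CPM.

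The multiplexins, of which type XVIII carries endostatin at its C-terminal end, differed between EC-like and VSMC-like cells. Col18a1 (ENSRNOG00000001229) averaged 533 CPM in VSMC-like, 395 CPM in EC-like, 320 CPM in lymphatic EC-like, 61.4 CPM in BEC-like and 31.6 CPM in fibroblast-like cells, against 2.86 CPM in NK&T-like cells. Col15a1 averaged 450 CPM in EC-like cells and 210 CPM in fibroblast-like cells but 27.9 CPM in VSMC-like cells. In EC-like cells the ratio of Col15a1 to Col18a1 UMIs was 0.788 to 2.78 over the 9 samples, and in VSMC-like cells 0.00464 to 0.270, so the ranges did not overlap. The short-chain genes Col8a1 and Col8a2, known from endothelial matrix, were highest in lymphatic EC-like cells, at 49.0 and 30.2 CPM. Col13a1, a transmembrane chain, was highest in EC-like cells at 14.9 CPM.

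**Figure D1:**
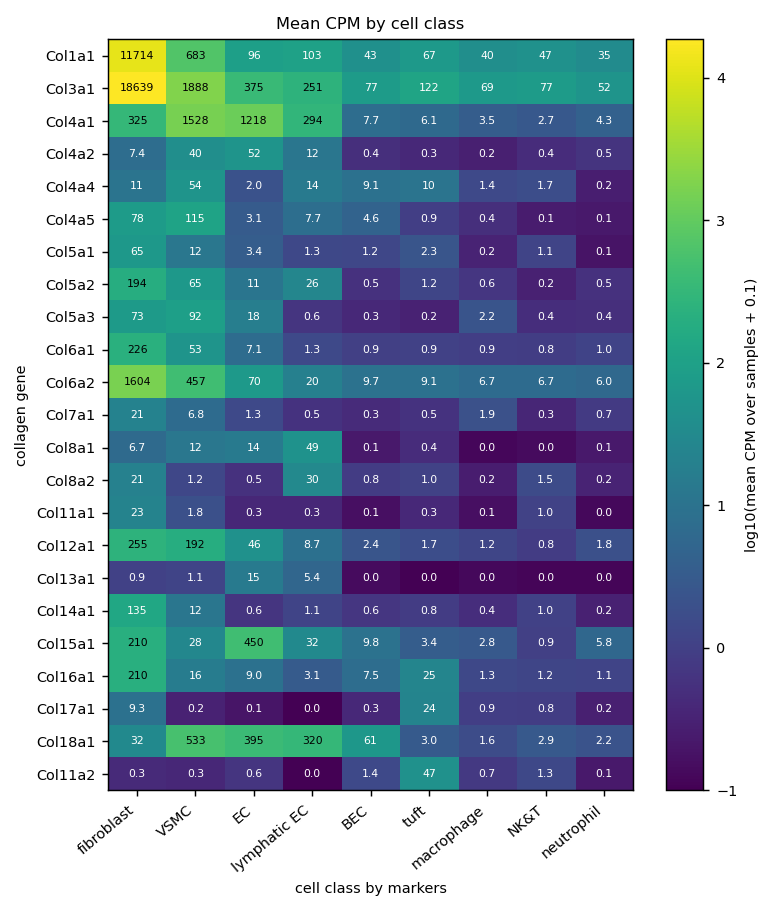
Mean CPM over the samples for the 22 collagen genes with 1000 UMIs or more and Col11a2 (rows) in 9 cell classes (columns), with colour on a log10 scale and the mean printed in each cell. Col1a1 and Col3a1 stand far above their level elsewhere in fibroblast-like cells (11714 and 18639 CPM), while Col4a1 and Col18a1 are highest, of the 9 classes drawn, in VSMC-like cells (1528 and 533 CPM).

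The fibroblast-like cells carried 65.9 to 98.3% of the collagen UMIs of each sample. They made up 3.76, 34.5 and 46.5% of cells in sham, 2.64, 5.11 and 3.14% in ctrl at days 1, 3 and 7, and 24.1, 5.50 and 3.30% in treat. Of their UMIs, collagens took 2.43, 4.25 and 5.15% in sham, 0.562, 3.6 and 4.38% in ctrl and 2.08, 3.14 and 4.90% in treat. Both arms were thus lowest at day 1 and within the sham range at days 3 and 7. The median UMI count of these cells was 5700 to 6900.5 in sham, 24832, 16780 and 9962 in ctrl and 12952, 8563 and 9379 in treat. The median was highest at day 1 in both arms, where the collagen share was lowest, and the part of this depth difference in the collagen share was not tested. The summed level of the 14 fibroblast markers was 20410 to 41895 CPM in sham, 7788 to 14331 CPM in ctrl and 11295 to 19303 CPM in treat, so that these markers, too, were lower after transplantation.

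The question of when levels moved was put to day 1 and day 7, each with 1 ctrl and 1 treat sample, and later to day 3, by the edgeR quasi-likelihood test with Benjamini-Hochberg adjustment over all genes. At day 1, the fibrillar chains Col1a1, Col3a1 and Col5a1 were lower in fibroblast-like cells and Col4a1 was higher. Of 25 members tested, 1 rose and 11 fell, 12 in all, where 33.3% of all 12104 genes were called. The median log2 difference was −1.41 for the members and −0.08 for all genes. Col1a1 was at 8337, 15856 and 17856 CPM in sham, 1911, 13575 and 15329 CPM in ctrl at days 1, 3 and 7, and 6323, 10982 and 15259 CPM in treat. Both day 1 samples lay below every other sample. The log2 difference of day 1 to sham was −1.60 ± 0.47 (SE, adjusted p = 0.031) for Col1a1.

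Col3a1 moved alongside. It stood at 12335, 23223 and 29508 CPM in sham, 2716, 18735 and 23557 CPM in ctrl and 11662, 17211 and 28803 CPM in treat, and fell at day 1 by 1.52 on the log2 scale (SE 0.51, adjusted p = 0.049). Here the treat sample of day 1 lay close to the lowest sham sample. Col5a1, which joins type I fibrils, was at 82.3 to 108 CPM in sham and at 13.2 and 43.1 CPM at day 1, a log2 difference of −1.43 ± 0.46 (adjusted p = 0.044). The other minor fibril chains Col5a2 and Col5a3 had day 1 levels of 56.9 and 129 CPM and of 37.7 and 21.6 CPM, against 227 to 268 and 24.1 to 84.6 CPM in sham, and were not called.

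Among the other structural kinds, 3 of the 4 beaded filament chains tested, Col6a1, Col6a2 and Col6a6, were lower at day 1, and Col6a5 was not called. Col6a2 was at 1585 to 1685 CPM in sham, at 369 CPM in ctrl and 1072 CPM in treat at day 1, and differed by −1.02 ± 0.26 (adjusted p = 0.017). Its partner chain Col6a1 was at 229 to 418 CPM in sham and at 37.7 and 146 CPM at day 1, a log2 difference of −1.68 ± 0.39 (adjusted p = 0.012). Col6a6, a further chain of this type, was low throughout, with 5.67 to 12 CPM in sham and at most 2.04 CPM after transplantation, and fell by 3.62 at day 1 (SE 0.52, adjusted p = 0.0021).

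Col14a1, which binds fibrils and was strongest in sham 1, was at 438, 163 and 148 CPM in sham, 29.6, 127 and 75.7 CPM in ctrl and 39.6, 95.2 and 100.4 CPM in treat. All 6 transplanted samples lay below the sham samples in the class as a whole, but not within each of its clusters (below). Its day 1 difference was −2.48 ± 0.46 (adjusted p = 0.0052). Col15a1 and Col18a1 of the basement membrane zone fell at day 1 by 1.86 (SE 0.49, adjusted p = 0.021) and by 1.42 (SE 0.26, adjusted p = 0.0054).

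The basement membrane network did not move as 1 group. Col4a1 was at 155, 166 and 216 CPM in sham, 271, 352 and 466 CPM in ctrl and 536, 376 and 384 CPM in treat, so that every transplanted sample lay above every sham sample. It rose by 1.43 ± 0.26 at day 1 (adjusted p = 0.0051) and by 1.38 ± 0.26 at day 7 (adjusted p = 0.019). Col4a5 went the other way, with 70.9, 121 and 265 CPM in sham, 6.18, 36.4 and 29.6 CPM in ctrl and 72.2, 57.1 and 43.6 CPM in treat. Its difference was −2.24 ± 0.70 at day 1 (adjusted p = 0.040), where the treat sample stood inside the sham range. Col4a6, which pairs with Col4a5 in some basement membranes, was at 3.95 to 10.8 CPM in sham and at most 2.11 CPM after transplantation, with a difference of −2.58 ± 0.54 at day 1 (adjusted p = 0.0085), and day 7 differed by −4.83 ± 0.71 (adjusted p = 0.0083).

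**Figure D2:**
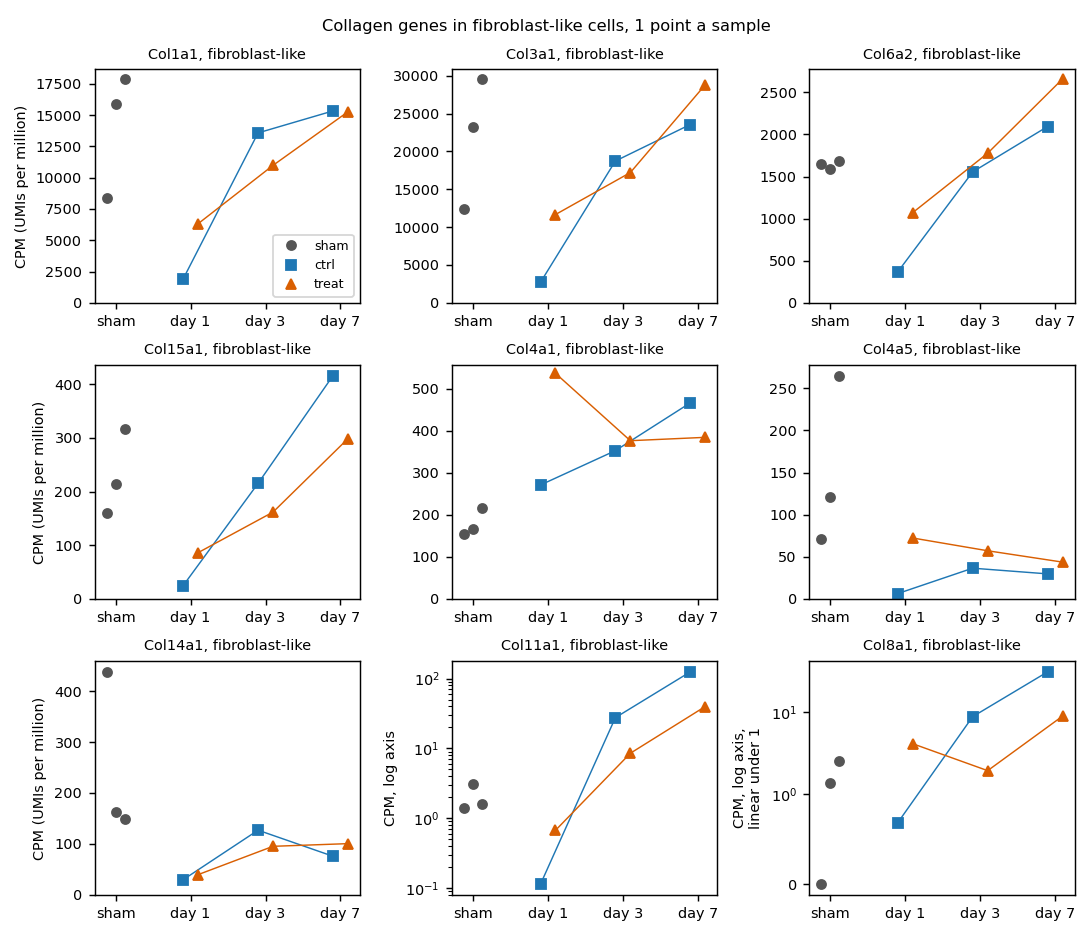
CPM of 9 collagen genes in fibroblast-like cells (y axis) in sham and at days 1, 3 and 7 (x axis), 1 point a sample, with lines joining the samples of an arm; Col11a1 and Col8a1 are on a log axis, the latter linear under 1. Col1a1 and Col3a1 are lowest at day 1, Col4a1 lies above sham at every day, and Col11a1 reaches 125 CPM in ctrl and 39.9 CPM in treat at day 7.

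From day 1 to day 7 Col1a1, Col3a1, Col5a2, Col5a3 and Col11a1 of the fibrillar kind rose within the transplanted samples, and Col5a1 was not called (log2 difference 0.87 ± 0.49, adjusted p = 0.214). Of 25 members 11 rose and 2 fell, 13 in all, where 29.8% of all genes were called, and the median log2 difference was 1.24 for the members and 0.07 for all genes. Col1a1 rose by 1.86 ± 0.51 (adjusted p = 0.026), Col3a1 by 1.92 ± 0.55 (adjusted p = 0.031), Col6a2 by 1.68 ± 0.28 (adjusted p = 0.0042), Col6a1 by 1.40 ± 0.41 (adjusted p = 0.033) and Col15a1 by 2.62 ± 0.53 (adjusted p = 0.0086). Col18a1 rose by 2.34 ± 0.28 (adjusted p = 0.0016), from 4.82 and 14.5 CPM to 48.0 and 52.8 CPM. The minor fibril chains Col5a3 and Col5a2 rose by 2.05 ± 0.44 (adjusted p = 0.010) and 1.24 ± 0.40 (adjusted p = 0.049), and the short-chain Col8a2 by 3.21 ± 0.55 (adjusted p = 0.0047). The members that fell were Col13a1, at most 3.88 CPM in any sample, and Col17a1, by 1.06 (SE 0.28, adjusted p = 0.025). Col6a5, which had 55 UMIs in all, was also called higher. Markers of other cells moved with this rise in the fibroblast-like cells of ctrl and treat. The 7 mesothelial markers summed to 49.0 and 35.6 CPM at day 1 and 341 and 259 CPM at day 7 (27.4 to 50.8 CPM in sham), the 14 VSMC markers to 132 and 663 and then 1568 and 1394 CPM (223 to 1347 in sham), the 12 NK&T markers to 2.50 and 4.03 and then 62.4 and 79.2 CPM (1.99 to 4.25 in sham), and the 12 macrophage markers to 143 and 57.8 and then 274 and 279 CPM (35.8 to 261 in sham), none of them at 0. The 8 Schwann markers, none at 0, were at 51.7 to 76.2 CPM in sham, 13.3 and 14.6 CPM at day 1 and 23.3 and 42.2 CPM at day 7. Their part in the rise was not tested.

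Against sham, day 7 differed in 6 of 25 members, 3 higher and 3 lower, where 7.63% of all genes were called. Col1a1, Col3a1 and Col6a2 were not among them. The highest difference was that of Col11a1 (ENSRNOG00000023148), a minor fibrillar chain that copolymerizes with other fibril collagens and is best known from cartilage. It was at 1.42, 3.09 and 1.60 CPM in sham, 0.113, 27.6 and 125 CPM in ctrl and 0.655, 8.50 and 39.9 CPM in treat. Day 7 was above sham by 5.07 ± 0.51 (adjusted p = 0.0036) and above day 1 by 6.48 ± 0.60 (adjusted p = 0.0012) on the log2 scale. The libraries of 1 sample varied widely, with 83.8, 231 and 37.6 CPM in ctrl and 22.7, 77.2 and 4.60 CPM in treat at day 7, though each lay above the highest sham library.

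Col8a1 was at 0, 1.35 and 2.50 CPM in sham and 31.5 and 8.99 CPM at day 7, a difference of 3.38 ± 0.80 (adjusted p = 0.040). Lower at day 7 were Col4a6, Col6a6 by 2.53 (SE 0.50, adjusted p = 0.022) and Col13a1. Col12a1, a fibril-associated chain known from tissues under load, reached 532 and 578 CPM in ctrl at days 3 and 7 and 377 CPM in treat at day 7, against 25.5, 187 and 158 CPM in sham. It was not called, and its libraries at day 7 ran from 65.2 to 1057 CPM.

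Day 3 against sham, a comparison added after the data were seen, called 2 of 25 members, where 2.42% of all genes were called. Col11a1 was higher by 2.93 ± 0.50 (adjusted p = 0.029) and Col6a6 fell by 2.48 (SE 0.51, adjusted p = 0.048), and the median difference of the members was −0.05. Col1a1 and Col3a1 were not called. Without sham 2 or sham 3, or either arm's sample of day 3 or day 7, 0 members were called, and DESeq2 called 4.

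The counts of day 1 and day 7 depended on single samples as well, and are given without the share of all genes called in each refit. The 12 calls of day 1 against sham became 5 without the ctrl sample of day 1 and 6 without sham 3, the 13 of day 7 against day 1 became 7 without the ctrl sample of day 1, 3 without the ctrl sample of day 7 and 6 without the treat sample of day 7, and the 6 of day 7 against sham became 0 without the ctrl sample of day 7, 1 without the treat sample of day 7, 3 without sham 2 and 2 without sham 3, and 13 in DESeq2. Without sham 1, whose class held 86 cells, they were 13, 13 and 8.

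**Figure D3:**
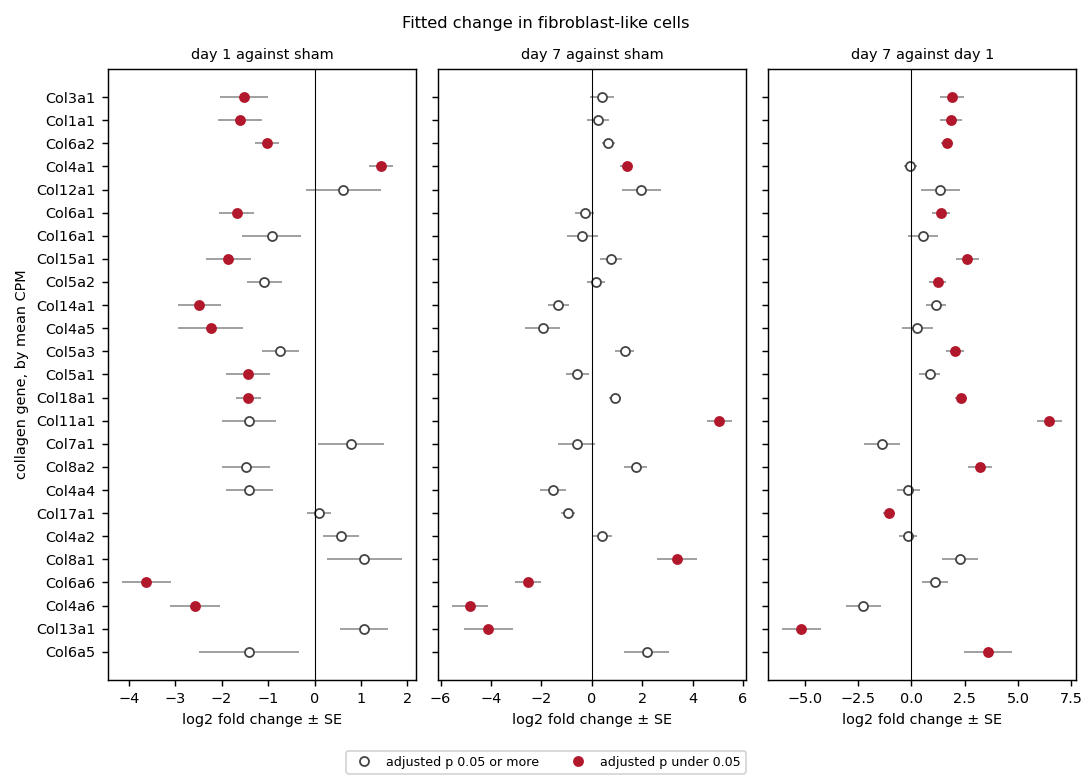
Log2 differences with their SE (x axis) of the 25 collagen genes tested in fibroblast-like cells (y axis, by mean CPM) for day 1 against sham, day 7 against sham and day 7 against day 1, with filled points for adjusted p under 0.05. Most points lie left of 0 at day 1 and right of 0 from day 1 to day 7, Col4a1 lies right of 0 at day 1 (1.43), and Col11a1 is the rightmost point in both day 7 panels (5.07 and 6.48).

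Fibroblast-like cells fell into 4 clusters that took different shares in the samples. Cluster 7, led by Dpt, Ogn and Gpc3, held 90.7, 67.3 and 70.0% of the sham cells. Cluster 8, led by Mgp, Ptx3 and Srpx, held 95.6% in ctrl and 98.8% in treat at day 1, with fewer fibroblast markers than the others, and cluster 16, with Lum, Mfap5 and Ccdc80, held 75.3 and 97.6% in ctrl and 81.3 and 89.2% in treat at days 3 and 7. Cluster 28, with Igfbp5 among its leading genes, held 2.33, 12.4 and 22.7% of the sham cells and at most 4.42% in any transplanted sample. In over 10% of its cells and at more than 2 times the level of all other cells, cluster 8 held 9 of the 14 fibroblast markers, with 1 among its 10 leading genes, against 14, 14 and 11 markers in clusters 7, 16 and 28. Libraries were clustered with no correction for differences between them, and clusters and days nearly coincide. A change of level within a cell, a change of the cells sampled and a library effect cannot be told apart in the class values.

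Within clusters the levels can be compared where a sample had 20 cells or more. Col4a5 was highest in cluster 28, at 696 and 773 CPM in sham 2 and sham 3 and 471 CPM in treat at day 3, against 69.6 to 169 CPM in cluster 7, 5.66 to 268 CPM in cluster 8 and 5.65 to 58.0 CPM in cluster 16. Col4a1 was at 471 to 501 CPM there and at 121 to 242 CPM in cluster 7, but reached 544 CPM in cluster 8 and 469 CPM in cluster 16. In cluster 7 Col4a1 was at 121 to 150 CPM in sham and 186 to 242 CPM after transplantation. In cluster 16 these levels were 161 to 174 and 375 to 469 CPM. In cluster 8 they were 232 CPM, in sham 3 alone, and 268 to 544 CPM. In cluster 28 treat at day 3, at 471 CPM, lay below sham 2 and sham 3, at 501 and 496 CPM. Col14a1 was at 84.4 to 496 CPM in cluster 7 and 62.2 to 143 CPM in cluster 16, which overlapped. It was at 21.0 to 56.3 CPM in cluster 8 and 18.8 to 39.1 CPM in cluster 28, below every cluster 7 value. In cluster 7 it was at 496, 219 and 179 CPM in sham and 222 CPM in ctrl at day 3. In cluster 16 it was at 114 and 143 CPM in sham 2 and sham 3 and 127 CPM in ctrl at day 3. The other transplanted samples of these clusters lay below their sham samples. Col1a1 in cluster 8 was at 1683 CPM in ctrl and 6295 CPM in treat at day 1, but at 14265 CPM in sham 3, 12222 CPM in ctrl at day 3 and 12420 and 13319 CPM in treat at days 3 and 7. The day 1 samples were thus low within this cluster as well, but the other samples rested on few cells. Cluster 8 held 23 cells in sham 3, 37 in ctrl at day 3 and 57 and 36 in treat at days 3 and 7. At day 1 it held 325 cells in ctrl and 5375 in treat. Col11a1 in cluster 16 was at 5.04 and 3.71 CPM in sham, 31.2 and 127 CPM in ctrl at days 3 and 7, and 3.77, 8.32 and 42.4 CPM in treat at days 1, 3 and 7.

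**Figure D4:**
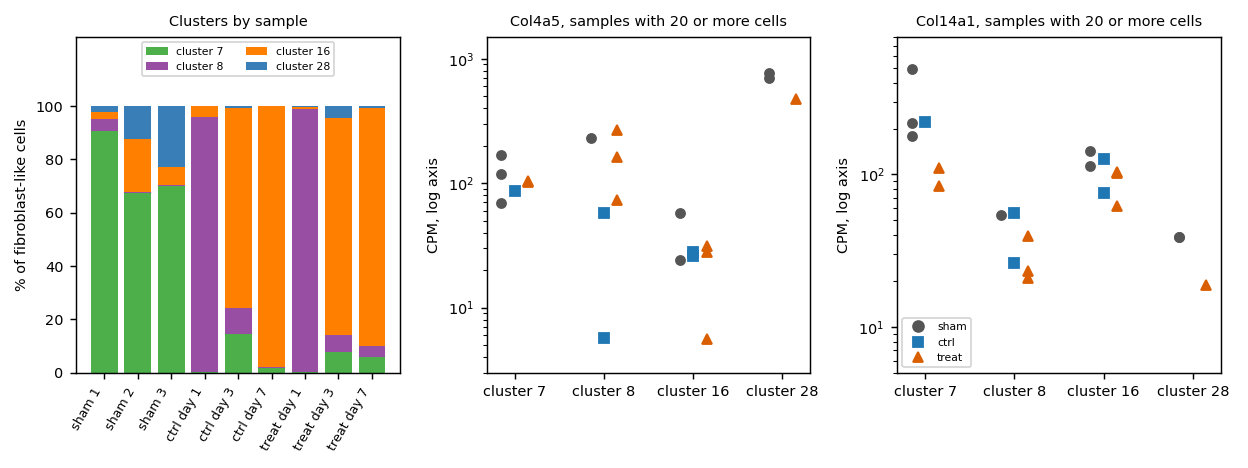
Left, shares of fibroblast-like cells in 4 clusters (y axis, %) in each sample (x axis); middle and right, CPM of Col4a5 and Col14a1 on log axes by cluster, 1 point for each sample with 20 cells or more. Cluster 28, with at most 4.42% of cells outside sham, has the highest Col4a5 points (471 to 773 CPM), and its Col14a1 points (at most 39.1 CPM) lie below those of cluster 7.

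A further cluster of 987 cells stayed unnamed and was left out of the class, since its best marker list was the erythroid one (3 of 6 markers) while the fibroblast markers Dcn, Dpt and Lum were among its 10 leading genes. Mgp, Col1a1 and Col3a1 were among these too, but are on no marker list. It held 3, 215 and 70 cells in sham, 167, 49 and 25 in ctrl and 436, 14 and 8 in treat.

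Some collagen genes lie side by side in the genome, and the type IV pairs are known to share a promoter region. Their UMI ratios were far from even. In RefSeq GRCr8 there is no protein-coding gene between Col4a1 and Col4a2, between Col4a3 and Col4a4 or between Col6a1 and Col6a2, and 1 between Col4a5 and Col4a6. The ratio of Col4a1 to Col4a2 UMIs, for chains that join in 1 trimer, was 29.4 to 62.8 in fibroblast-like, 26.4 to 49.1 in VSMC-like and 14.3 to 36.8 in EC-like cells. Col6a2 to Col6a1 was 3.94 to 10.1 in fibroblast-like cells. Col4a5 to Col4a6 was 24.5 to 34.7 in the 4 fibroblast-like samples with at least 10 Col4a6 UMIs, while VSMC-like cells held 833 UMIs of Col4a5 and 1 of Col4a6. Col4a4 to Col4a3 was 18.8 to 31.6 in the 3 BEC-like samples with at least 10 Col4a3 UMIs, 20.5 and 20.9 in 2 fibroblast-like samples and 5.5 in 1 VSMC-like sample. Such ratios are of 3′ UMIs and not of chains, and how well each 3′ end is covered by the annotation was not tested.

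The partners that collagen chains need were taken from 5 lists in fibroblast-like cells. At day 1 against sham, 2 of 12 genes of proline and lysine hydroxylation and sugar transfer rose and 2 fell. Since 33.3% of all genes were called in this comparison, the counts of the lists were near or below that share or rested on few genes. Plod2, the hydroxylase of lysines in telopeptides, rose by 1.01, and was at 122 to 205 CPM in sham, 246 to 516 CPM in ctrl and 240 to 399 CPM in treat. Plod3 rose by 0.63, P4ha2 fell by 0.95 and P3h3 fell by 0.77. Of 15 genes of chaperones, export and propeptide removal 4 fell, namely the N-propeptidase Adamts2 by 1.83, the C-propeptidase enhancer Pcolce by 1.24, the C-propeptidase Bmp1 by 1.02 and Fkbp7 by 0.89. Of 6 crosslinking genes Loxl2 fell by 1.54 and Tgm2 by 1.31, and of 9 receptor and uptake genes the collagen integrin chain Itga11 fell by 2.37, the receptor Ddr2 by 1.20 and the uptake receptor Mrc2 by 0.92.

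Of 6 collagen-cleaving proteases Ctsk fell by 0.88 at day 1, while Mmp8 and Mmp9, known from neutrophils, were called higher at 2.77 and 2.58 CPM or less at day 1. The 10 neutrophil markers, none at 0, summed to 32.6 to 411 CPM in the fibroblast-like cells of sham, 808 to 2995 CPM in ctrl and 338 to 1507 CPM in treat. Their part in these calls was not tested.

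From day 1 to day 7, no gene of the 5 lists fell in fibroblast-like cells. In the order of the lists, 1 of 12, 6 of 15, 3 of 6, 5 of 9 and 1 of 6 rose, where 15.2% of all genes rose, so that the first and the last list were near or below that share. Among them were P4ha3 by 2.07, the crosslinking enzyme Loxl1 by 1.77 and Itga11 by 2.83. Loxl1 was at 217 to 273 CPM in sham, 104, 338 and 455 CPM in ctrl and 174, 331 and 607 CPM in treat. Against sham, where 7.63% of all genes were called, day 7 was higher for Plod2 by 1.61, P4ha3 by 2.90, Loxl1 by 1.18, Lox by 1.34 and the collagen integrin chain Itga1 by 2.38, and lower for Tgm2 by 1.16. Lox was also 1 of the 14 markers used to name the class.

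In VSMC-like cells, Col6a2 and Col5a3 were higher and Col4a5 and Col4a4 lower at day 1 than in sham. Col3a1 was higher at day 7. The markers did not limit this class to the muscle of arteries and veins. Finer clustering gave a cluster of 1415 VSMC-like cells with Rgs5 and Cox4i2 among its leading genes. Another of 265 cells had Myh11 and Actg2. Of 18 members tested, 2 rose and 3 fell at day 1 against sham, where 5.84% of genes were called, and 6 rose and 1 fell at day 7, where 6.97% were called. The median difference at day 7 was 1.42 for the members and −0.03 for all genes. Col6a2 was at 115, 146 and 213 CPM in sham, 373, 427 and 863 CPM in ctrl and 475, 712 and 789 CPM in treat, so that sham and transplanted samples did not overlap. It rose by 1.49 ± 0.30 at day 1 (adjusted p = 0.012) and by 2.46 ± 0.30 at day 7 (adjusted p = 0.0012). It was the only member called over all days, by 1.85 ± 0.37 in ctrl (adjusted p = 0.026, 1 of 18, 3.3% of genes) and by 2.12 ± 0.38 in treat (adjusted p = 0.042, 1 of 18, 0.74% of genes).

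Col5a3 was at 41.1, 22.7 and 24.2 CPM in sham, 93.4, 61.1 and 217 CPM in ctrl and 160, 68.2 and 145 CPM in treat, and rose by 2.07 ± 0.39 at day 1 (adjusted p = 0.0096) and by 2.61 ± 0.39 at day 7 (adjusted p = 0.0031). Also higher at day 7 were Col6a1 by 1.79 ± 0.37 (adjusted p = 0.013), Col3a1 by 2.31 ± 0.55 (adjusted p = 0.026), Col4a1 by 1.14 ± 0.29 (adjusted p = 0.032) and Col5a2 by 1.46 ± 0.39 (adjusted p = 0.041). Col3a1 reached 4230 and 3492 CPM at day 7, from 270, 732 and 1691 CPM in sham.

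Col4a5 was at 145, 207 and 221 CPM in the VSMC-like cells of sham, 21.1, 180 and 42.2 CPM in ctrl and 54.1, 87.0 and 81.4 CPM in treat. It fell by 2.38 at day 1 (SE 0.41, adjusted p = 0.0058) and by 1.66 at day 7 (SE 0.39, adjusted p = 0.024). Col4a4, another chain of type IV, was at 85.9 to 101 CPM in sham and at 5.62 and 27.0 CPM at day 1, a fall of 2.70 (SE 0.44, adjusted p = 0.0049), and Col14a1 fell by 2.61 at day 1 (SE 0.68, adjusted p = 0.043). For Col4a5 the ctrl sample of day 3, whose class held 33 cells, lay within the sham range.

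From day 1 to day 7 the VSMC-like cells showed 2 of 18 members higher, Col6a1 by 1.34 ± 0.34 (adjusted p = 0.042) and Col15a1 by 3.98 ± 0.70 (adjusted p = 0.0086), where 5.07% of genes were called. Col15a1 rested on ctrl at day 7, with 187 CPM against 3.05 to 20.1 CPM elsewhere, in libraries of 48.8, 276 and 49.3 CPM, and no member was called without that sample or without the ctrl sample of day 1. The calls were 4 without the ctrl or treat sample of day 3 and 6 without sham 1. The same sample's library 2 had 2997 CPM of Col1a1, against 849 and 1161 CPM, and leaving it out, an alternative chosen after seeing the data, ended the day 7 call of Col4a5.

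Markers moved with the VSMC class. The summed VSMC markers were at 30711 to 60817 CPM in sham, 10428 to 21835 CPM in ctrl and 17268 to 26424 CPM in treat, and the fibroblast markers at 697 to 1059, 504 to 952 and 664 to 1761 CPM. The 10 neutrophil markers, none at 0, were at 25.9 to 93.4 CPM in sham, 668 to 1560 CPM in ctrl and 118 to 720 CPM in treat, without overlap between sham and transplanted samples, and the 12 macrophage markers, none at 0, at 32.2 to 186, 202 to 274 and 155 to 363 CPM. Their part in the collagen results was not tested. The 7 calls of day 7 became 1 without the ctrl sample of day 7, 3 without sham 2 and 11 without the ctrl sample of day 3, and the 5 of day 1 became 1 without the ctrl sample of day 1 and 2 without the treat sample of day 1 or sham 2. The calls of Col6a2 over all days were lost without any 1 of the sham samples, that in ctrl also without its day 7 sample, and that in treat without its sample of day 3 or day 7. Without the ctrl sample of day 3 the ctrl count was 3, and without that of day 7 the treat count was 2. Under finer clustering, in which 86 cells with 6 fibroblast markers joined the class, Col6a2 lost every call (adjusted p = 0.450 at day 1 and 0.142 at day 7). Over all 19 alternatives, the day 7 call was lost in 4 for Col3a1, 4 for Col4a1, 3 for Col6a1 and 9 for Col5a2. It was lost in 5 for Col4a5, 1 for Col5a3 and 1 for Col6a2. In the partner lists 2 of 12, 4 of 10, 1 of 5, 0 of 6 and 4 of 4 genes were higher and 1 receptor, Adgrg1, was lower at day 7 against sham, where 6.97% of all genes were called, the last list being the proteases Mmp9, Ctsk, Mmp14 and Mmp2.

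In EC-like cells, the lining of the vessels, 1 call was made in 7 comparisons. Of 17 members tested against sham, 0 were called in ctrl (1.42% of genes called) and 0 in treat (0.193%), and of 18 members 0 at day 1 (5.58%) and 0 at day 7 (0.679%). In these edgeR comparisons 4, 3, 2 and 4 members had an unadjusted p under 0.05. Among all genes 2098 and 1023 of 10374, and 2749 and 1452 of 10757, had such a p. DESeq2 called 1 member in ctrl and 1 at day 7 against sham. Col4a1 was at 867, 770 and 918 CPM in sham, 891, 2245 and 1595 CPM in ctrl and 1377, 903 and 1397 CPM in treat, where sham and transplanted samples overlapped. Col18a1 was at 135, 280 and 319 CPM in sham, 297, 720 and 560 CPM in ctrl and 440, 371 and 435 CPM in treat. Col13a1 alone was called, lower at day 7 than at day 1 by 1.52 (SE 0.30, adjusted p = 0.041, 1 of 18, 2.34% of genes), with 10.0 and 36.9 CPM at day 1 and 4.50 and 11.6 CPM at day 7. The 12 NK&T markers in EC-like cells were at 6.81 to 12.02 CPM in sham, 4.78 and 14.2 CPM at day 1 and 109 and 68.7 CPM at day 7, and the 10 neutrophil markers at 85.7 to 186 CPM in sham and 243 to 1510 CPM after transplantation, none of them at 0, and their part in the call was not tested. This call was lost in 7 of 18 alternatives, among them the fits without sham 2 or sham 3 or without either arm's sample of day 1 or day 7. An EC-like cluster with 6 of 14 VSMC markers was part of the class.

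In BEC-like cells, the lining of the duct, Col18a1 was higher after transplantation. It was at 41.5, 28.6 and 34.1 CPM in sham, 59.3, 83.1 and 86.8 CPM in ctrl and 57.0, 80.8 and 81.7 CPM in treat, so every transplanted sample lay above every sham sample. In NK&T-like cells of the same samples Col18a1 was at 0.706 to 6.73 CPM, and in empty barcodes at 22.4, 37.6 and 40.4 CPM in sham and 47.9 to 56.6 CPM in the transplanted samples, which did not overlap. In sham 2 and sham 3 the BEC level lay below that of the empty barcodes. The estimated free RNA made up 1.95 to 5.07% of the Col18a1 UMIs in BEC-like cells, and with it subtracted Col18a1 was still called in each comparison with sham. It rose by 1.38 ± 0.18 in ctrl (adjusted p = 0.0080, 1 of 22 members, 4.24% of genes), by 1.27 ± 0.18 in treat (adjusted p = 0.029, 1 of 22, 0.376%), by 1.11 ± 0.14 at day 1 (adjusted p = 0.0082) and by 1.38 ± 0.14 at day 7 (adjusted p = 0.0058, 1 of 25, 3.57%). The single libraries spanned 36.2 to 212 CPM after transplantation. The BEC-like cluster 22 held 136, 895 and 1085 of the 443, 1590 and 1745 BEC-like cells of sham. After transplantation it held 27 to 180 cells a sample, of 714 to 4393 BEC-like cells. Another cluster, of 3604 cells with the BEC markers Krt18 and Krt8 among its leading genes, stayed unnamed and was left out of the class. That cluster held 44, 112 and 122 cells in sham, 553, 38 and 54 in ctrl and 1937, 475 and 269 in treat. A change of level and a change of the cells sampled cannot be told apart in the BEC-like class values. Levels within the clusters of this class were not compared. The 10 neutrophil markers, none at 0, moved with it in BEC-like cells, at 612 to 855 CPM in sham, 1749 to 3297 CPM in ctrl and 2511 to 3199 CPM in treat, without overlap between sham and transplanted samples, and their part in the result was not tested. The calls over all days were lost without sham 2 or sham 3, that in treat also without sham 1 or the treat samples of day 3 or day 7, and that at day 7 without the ctrl sample of day 7.

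At day 1, the fibril-associated Col9a1 and Col9a2 were called lower in BEC-like cells, as was Col14a1, of which free RNA made up a large share there. Col14a1 fell by 4.39 (SE 0.95, adjusted p = 0.022), Col9a1 fell by 2.12 (SE 0.48, adjusted p = 0.026) and Col9a2 fell by 2.40 (SE 0.56, adjusted p = 0.029). With Col18a1 this made 1 of 25 members higher and 3 lower, where 18.3% of genes were called. All 3 were at 2.16 CPM or less in every sample. Free RNA held Col14a1 at 7.54, 24.96 and 22.4 CPM in sham and 0.46 and 4.26 CPM at day 1, and the estimated free RNA made up 44.5 to 73.3% of the Col14a1 UMIs in the BEC-like cells of sham. With free RNA subtracted Col14a1 did not pass the filter on low counts and had no test, while Col9a1 and Col9a2 were still called, and no change of Col14a1 in BEC-like cells is read from its call. The 4 calls became 8 without sham 1, 1 without sham 2 or sham 3, 0 without either sample of day 1, and 10, with 1 higher and 9 lower, when counts were scaled by library size alone. From day 1 to day 7 0 of 25 members were called by edgeR, where 16.2% of genes were, and 0 in DESeq2. An unadjusted p under 0.05 was found for 4 members and for 4642 of all 13735 genes. Col1a1 and Col3a1 were at 4.61 to 202 and 10.1 to 369 CPM in the BEC-like cells of sham, lowest in sham 1, in which free RNA too was lowest in Col1a1.

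**Figure D5:**
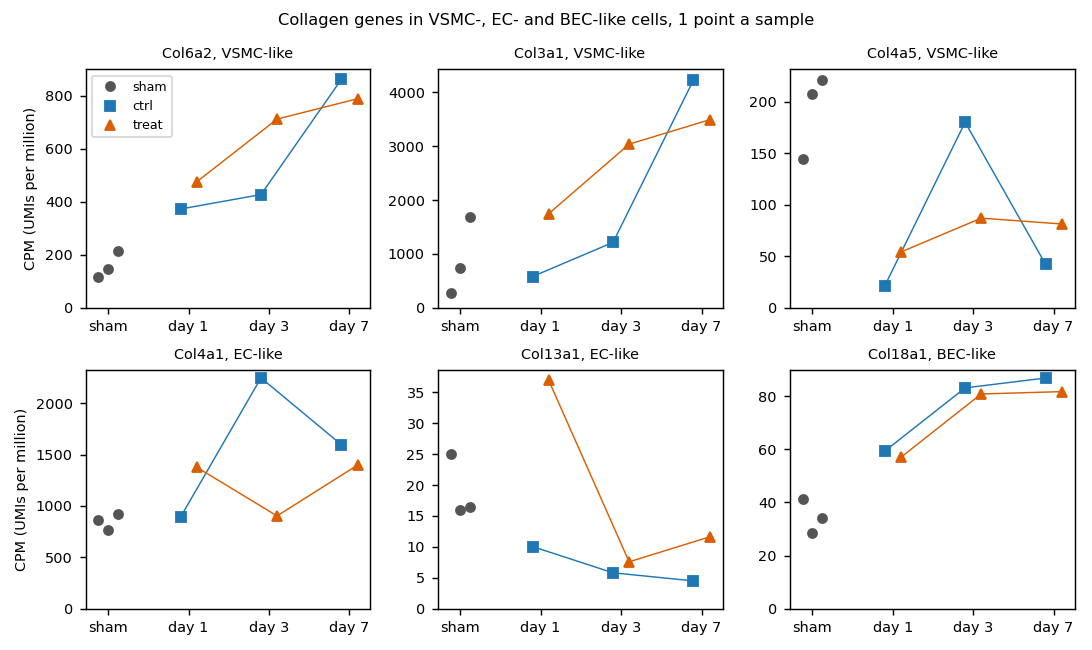
CPM (y axis) of Col6a2, Col3a1 and Col4a5 in VSMC-like cells, Col4a1 and Col13a1 in EC-like cells and Col18a1 in BEC-like cells in sham and at days 1, 3 and 7 (x axis), 1 point a sample. Col6a2 in VSMC-like cells and Col18a1 in BEC-like cells lie above every sham sample at each day, while EC-like Col4a1 overlaps with sham.

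Summed over all cells, fibrillar collagen levels moved with the share of fibroblast-like cells captured, and fewer cells of a type and less RNA per cell cannot be told apart there. Col1a1 was at 642, 7953 and 9324 CPM in sham, the first value from the sample with 3.76% fibroblast-like cells, 185, 2112 and 1190 CPM in ctrl and 2902, 1047 and 1013 CPM in treat. In ctrl against sham 4 of 34 members were called, all lower, where 9.05% of genes were called. Col4a4 was at 14.0, 11 and 12.2 CPM in sham, 2.73, 3.94 and 2.59 CPM in ctrl and 6.49, 3.43 and 3.80 CPM in treat, with differences of −1.67 ± 0.30 (adjusted p = 0.022) in ctrl and −1.69 ± 0.31 (adjusted p = 0.028) at day 7 against sham, where it was the 1 member of 36 called and 9.2% of genes were. Col6a6, Col9a1 and Col11a2, at 13.6 CPM or less, were the others.

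The other comparisons over all cells called no member by edgeR. They were treat against sham, where 0% of genes were called, day 1 against sham, where 4.8% were, and day 7 against day 1, where 3.61% were. The members with an unadjusted p under 0.05 were 7, 7 and 2, and DESeq2 called 6, 7 and 1. Among all genes such a p was found for 3828 of 16015, 4480 of 16478 and 3748 of 16478. Without sham 1, day 1 against sham called 1 member. The 4 members called in ctrl became 0 without sham 2 or sham 3 or the ctrl sample of day 3 or day 7, 2 without the ctrl sample of day 1, 1 without the treat sample of day 3 and 8 without that of day 1. The 1 at day 7 became 6 without sham 1, 4 without either sample of day 1, and 0 without sham 2 or sham 3 or either sample of day 7.

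In the other classes, day 3 against sham called Col6a2 alone of 18 members in VSMC-like cells, higher by 1.89 ± 0.30 (adjusted p = 0.0078), where 3.3% of genes were called, and Col18a1 alone of 25 in BEC-like cells, higher by 1.48 ± 0.14 (adjusted p = 0.0041), where 4.05% were. The VSMC count was 0 without sham 2 or the treat sample of day 3 and 3 without the ctrl sample of day 3, and the BEC count was 2 without sham 1. Cluster 22, frequent in sham, held 27 of 714 BEC-like cells in ctrl and 31 of 2669 in treat at day 3. For Col18a1 a change of level and a change of the cells sampled cannot be told apart here either. In EC-like cells edgeR called 0 of 18 (0.307% of genes), with 4 members at an unadjusted p under 0.05 and 1 called by DESeq2. Over all cells edgeR called 0 of 36 (6.18% of genes), with 9 unadjusted and 9 by DESeq2. Among all genes, 1450 of 10757 in EC-like cells and 4623 of 16478 over all cells had an unadjusted p under 0.05. Over all cells 2 members were called without either sample of day 1 and 3 without sham 1.

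Averaged over all days, few collagen genes were called against sham in fibroblast-like cells. The samples of an arm are its days, so the spread behind the p-values of these comparisons includes change between days. In ctrl 2 of 23 members were lower, Col6a6 by 3.31 (SE 0.60, adjusted p = 0.037) and Col4a6 by 3.85 (SE 0.78, adjusted p = 0.048), where 1.52% of genes were called. Without any 1 of the sham or ctrl samples, or without the treat sample of day 3, 0 members were called. The count was 3 without the treat sample of day 1 and 1 without that of day 7. In treat 0 of 23 were called by edgeR, where 0.189% of genes were, and 2 in DESeq2. An unadjusted p under 0.05 was found for 5 members and for 1348 of all 11665 genes. These comparisons share the sham samples.

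Whether raised arterial flow moved collagen levels at matched days was asked with day as a term. No member was called between treat and ctrl. In fibroblast-like cells 0 of 25 were called and 0% of genes, and 0 members in DESeq2. An unadjusted p under 0.05 was found there for 9 members and for 1677 of all 12104 genes. Over all cells 0 of 36 were called and 0% of genes, with 1 unadjusted, in VSMC-like cells 0 of 18 and 0.0115% of genes, with 2 unadjusted, in EC-like cells 0 of 18 and 0% of genes, with 2 unadjusted, and in BEC-like cells 0 of 25 and 0% of genes, with 1 unadjusted. DESeq2 called 0 members between the arms in each of these. Of all genes, an unadjusted p under 0.05 was found for 632 of 16478 over all cells and 609 of 8722 in VSMC-like cells. It was found for 812 of 10757 in EC-like and 1725 of 13735 in BEC-like cells. A member that missed the threshold is not shown to be equal between the groups. With 1 sample an arm and day, a difference limited to 1 day could not be tested.

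In the fibroblast-like cells of day 1, Col1a1 was at 1740, 2279 and 2517 CPM in the libraries of ctrl and at 5015, 8665 and 5396 CPM in those of treat, which did not overlap. These libraries held 211, 50 and 79 fibroblast-like cells in ctrl and 899, 1893 and 2648 in treat. They are parts of 1 sample an arm and no replicates of the arm, so no difference between the arms is read from them. How many other genes separate in this way was not counted. At day 7 the libraries overlapped, with 12775, 19413 and 16926 CPM in ctrl and 15295, 15789 and 13857 CPM in treat. The members with the smallest unadjusted p between the arms were Col13a1, higher in treat by 2.48 ± 0.58 (adjusted p = 0.209), Col5a3, with a difference of −1.27 ± 0.35 (adjusted p = 0.265), and Col18a1, with 0.74 ± 0.22 (adjusted p = 0.271).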

How the data were processed

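Per the labels and matrix headers, the authors deposited raw UMI counts per gene and barcode from 10x Genomics 3′ libraries, empty barcodes included. The headers name Cell Ranger 4, and the submitters' processing notes list Cell Ranger 5.0.1 and Seurat 3.2.0. The genome build is not given in the sources used here, and no coordinates or sequences are printed. Library 1 of treat at day 3 was not analysed here.

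Kept barcodes had 400 to 6000 genes, with mitochondrial genes under 25% and hemoglobin genes under 3% of UMIs, and those above percentile 92.5 of a score from simulated doublets were removed in each library. In ctrl at day 3 the hemoglobin limit removed 2479 of 2923 and 3966 of 4312 barcodes of libraries 2 and 3. Log-normalized counts of 2000 variable genes without collagens gave 30 principal components and Leiden clusters (resolution 0.9, leidenalg 0.10.2), named from marker lists. No correction between libraries was applied. The naming rule was changed once after clusters were seen: genes were ranked against the median cluster, and cycling was treated as a state.

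UMIs were summed per sample and class, and tested in R 4.3.3 by edgeR 4.0.16 (TMM, filterByExpr, quasi-likelihood), with Benjamini-Hochberg adjustment over all genes and a threshold of 0.05. Ctrl and treat were set against sham by group means (6 residual degrees of freedom). In this fit the samples of an arm are its days, so the spread includes change between days. Days and arms came from 1 fit with day and arm as terms (4 residual degrees of freedom). Its spread is that between the sham samples and that of the arm difference from day to day. It is not a spread between replicates of 1 arm and day. Day 3 against sham, from the same fit, was added after the data were seen. CPM are not TMM-scaled, while differences are, with factors from 0.823 to 1.15 in fibroblast-like cells and 0.885 to 1.31 over all cells. SE is the log2 difference divided by the root of F. The scripts were tested on simulated data, with 200 genes changed. Of the 2-fold changes 0 to 40.4% were called, and of the 4-fold changes 0 to 84.5%. Both were at 0% over all cells for day 7 against day 1. Up to 14.1% of calls were false (day 7 against day 1, BEC-like cells). A count of 0 called members therefore does not show equal levels. Of simulated doublets in the sham libraries, 58 of 122, 264 of 498 and 320 of 599 were marked. Alternatives were DESeq2 1.42.0, other scaling, filters, cell limits, clustering, free-RNA subtraction, libraries as samples, and leaving out each sample.

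Named were all called members, or the 15 with the smallest p, the 10 with the highest mean level, the pairs of type IV and VI, and up to 4 called genes of each other list by smallest p. Genes in other examples were chosen after their values were seen. Members, lists and markers were chosen with earlier results of these data known.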

Additional observations from a re-analysis of the deposited data

Results flagged for a closer look

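Col11a2 (ENSRNOG00000000463), a fibrillar chain best known from cartilage, stood out in tuft-like cells, a class in which no comparison between groups was tested. It was flagged because its lowest level in the 9 samples, 8.50 CPM, lay above the levels of the other 8 classes compared in the report. That lowest value, in ctrl at day 7, was 2 UMIs of 235197 in 85 cells, and free RNA held Col11a2 at up to 8.80 CPM (sham 1). In the 8 other named classes, examined later, single samples reached 27.8 CPM in islet endocrine-like, 21.9 CPM in goblet-like and 9.31 CPM in mast-like cells, from 2 to 10 UMIs a class. The tuft level ran from 8.50 to 89.8 CPM with a mean of 46.6 CPM, in 83 to 772 cells a sample. The highest value in the 8 classes of the report was 3.36 CPM, in NK&T-like cells, and BEC-like cells averaged 1.39 CPM. Over all cells Col11a2 was at 1.94 to 13.6 CPM in sham and at most 1.29 CPM after transplantation, and the share of tuft-like cells in that difference was not tested.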

How the results depend on the processing

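No result reversed. Of 1190 refits of the 66 single-gene calls, 936 kept the call and 254 lost it. The 5 kept under every alternative run were Col11a1 and Col18a1 (day 7 against day 1) and Col18a1 and Col6a6 (day 1 against sham) in fibroblast-like cells and Col18a1 (day 3 against sham) in BEC-like cells. Counts of called members that moved by over 1.5 times follow, and the cause was not tested. Here and above, the share of all genes called under each alternative is not given. No change particular to the members is read from these counts. DESeq2 gave 13, 6, 7, 12 and 1 over all cells (ctrl against sham, treat against sham, day 1 against sham, day 7 against sham, day 7 against day 1), 6, 2 and 13 in fibroblast-like cells (ctrl, treat and day 7 against sham), 3 and 3 in VSMC-like (ctrl, treat), 1 and 1 in EC-like and 4 and 2 in BEC-like cells (ctrl and day 7 against sham). Libraries as samples gave 9, 3, 6, 8 and 6 over all cells in the first order, 4 and 1 in fibroblast-like (ctrl, treat), 4, 2 and 8 in VSMC-like (ctrl, treat, day 7 against day 1) and 4, 0, 2 and 3 in BEC-like cells (ctrl, treat, day 7 against sham, day 7 against day 1). No filter gave 7, 10, 2, 8, 15 and 8 in VSMC-like cells (ctrl and treat against sham, treat against ctrl, day 1, day 7, day 7 against day 1) and 1 and 1 in EC-like cells (day 1 and day 7 against sham). Leiden resolution 2 gave 0, 0, 4 and 0 in VSMC-like (ctrl, treat, day 7 against sham, day 7 against day 1) and 0 in BEC-like cells (treat). Doublets kept gave 2 and 0 in VSMC-like (ctrl, treat) and 9, 7 and 3 in BEC-like cells (ctrl, day 1, day 7 against sham). Library size alone gave 9 and 3 over all cells (ctrl and day 7 against sham), 0 in EC-like (day 7 against day 1) and 0 and 10 in BEC-like cells (treat, day 1 against sham). That scaling moved the median difference of all genes, for day 1 against sham over all cells, from −0.08 to −0.44. RLE scaling gave 2 and no hemoglobin limit 3 (day 7 against sham, all cells), and free RNA subtracted 1 (ctrl, fibroblast-like). For day 3 against sham, an added comparison, DESeq2 gave 9, 4, 1 and 3 (all cells, fibroblast-, EC- and BEC-like), libraries as samples 5, 1 and 2 (all cells, fibroblast-, BEC-like), doublets kept 1, 4, 2 and 3 (all cells, fibroblast-, VSMC-, BEC-like), no filter 4, 7 and 1 (fibroblast-, VSMC-, EC-like), library size alone 1 and 1 (all cells, fibroblast-like), no hemoglobin limit 1 (all cells), Leiden resolution 2 1 and 0 (fibroblast-, VSMC-like) and free RNA subtracted 1 (fibroblast-like).

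Leaving out each sample, where an arm and day could rest on 1 sample assumed to vary like the rest, gave 0 to 8 (ctrl), 0 to 1 (day 1) and 0 to 6 (day 7) against sham over all cells, 0 to 3, 5 to 15 and 0 to 8 in fibroblast-like cells, with 3 to 13 from day 1 to day 7, and 0 to 3 (ctrl), 0 to 2 (treat), 1 to 6 (day 1), 1 to 11 (day 7) and 0 to 6 (day 7 against day 1) in VSMC-like cells. It gave 0 to 1 in EC-like cells (day 7 against day 1), and 0 to 1 (ctrl), 0 to 1 (treat), 0 to 8 (day 1), 0 to 3 (day 7) and 0 to 1 (day 7 against day 1) in BEC-like cells. For day 3 against sham it gave 0 to 3 over all cells, in fibroblast-like and in VSMC-like cells and 1 to 2 in BEC-like cells. No paired analysis was possible because replicate numbers of sham carry no day, and ctrl and treat are matched by day in the fit. Free-RNA subtraction was not run over all cells. Depth limited members with few UMIs, 6 of which entered no test: Col2a1, Col6a4, Col9a3, Col10a1, Col23a1 and Col25a1.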

Other observations

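The ratio of Col3a1 to Col1a1 UMIs, noticed after its values were seen and therefore given with no test, differed between the samples of the arms in EC-like and VSMC-like cells. In EC-like cells it was 2.25, 2.47 and 3.24 in sham, 3.2, 3.23 and 2.65 in ctrl at days 1, 3 and 7, and 9.57, 9.73 and 11.5 in treat. In VSMC-like cells it was 1.36, 1.00 and 2.08 in sham, 1.72, 3.04 and 1.93 in ctrl, and 5.66, 4.96 and 6.37 in treat. All 3 treat samples lay above the other 6 samples in both classes, but single libraries did not separate. In EC-like cells of ctrl at day 7 the ratio was 12.8, 2.12 and 1.85 in libraries 1 to 3, with Col1a1 at 36.4, 356 and 622 CPM, so libraries 2 and 3 set the value of that sample and library 1 lay within the 6.22 to 16.1 of the treat libraries. In VSMC-like cells library 1 of ctrl at day 7 was at 4.18, within the 4.13 to 9.26 of the treat libraries. In fibroblast-like cells the ratio was 1.38 to 1.89 over all samples, and in BEC-like cells 1.56 to 2.2. Col1a1 in EC-like cells was at 50.2, 57.6 and 266.5 CPM in ctrl and 45.8, 43.5 and 36.4 CPM in treat, and Col3a1 at 161, 186 and 705 CPM and at 438, 423 and 418 CPM. These treat levels of Col1a1 were no higher than the mean of NK&T-like cells. Empty barcodes held Col1a1 at 247 to 5341 CPM in sham, 99.6 to 1033 CPM in ctrl and 590 to 1561 CPM in treat. Estimated free RNA made up 3.225 to 3.683% of the UMIs of EC-like cells in sham, 2.273 to 7.01% in ctrl and 2.736 to 6.144% in treat. The part of free RNA in these ratios was not tested.

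Col17a1, a transmembrane chain of epithelial anchoring, was highest in tuft-like cells, at 23.7 CPM on average (0 to 46.5 CPM over 9 samples), and second in fibroblast-like cells, at 9.32 CPM.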
